A study of Homo sapiens with 33 samples.

Results

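The comparison described here asks what tumor necrosis factor (TNF) changed in THP-1 cells that were already under all-trans retinoic acid (RA). THP-1 is a human monocytic leukaemia line. The arrays were chosen by their titles: 5 arrays labelled RA and TNF were set against 5 labelled RA only, which is 10 of the 33 arrays of the series. In the RA plus TNF wells, cells had 20 nM RA for 16 h and then RA together with 5 ng per ml TNF for 24 h. In the RA wells, cells had 20 nM RA for 16 h and a second dose of RA for the remaining 24 h, without TNF. Both groups therefore carried RA throughout and were harvested at 40 h. The TNF effect without RA was taken from 5 wells with 5 ng per ml TNF for 24 h and 6 wells with the ethanol vehicle at 0.1%, also harvested at 40 h. Genes that answer to RA early were taken from 3 wells at 16 h of RA and 5 vehicle wells at 16 h, none of which enter the 40 h comparison. Each array came from a separate culture well of this 1 cell line, so p-values measure the spread between wells and arrays.

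TNF binds receptors on the cell surface and releases the transcription factor NF-kB from its inhibitors in the cytoplasm. NF-kB then switches on inflammatory genes and, among them, genes for its own inhibitors, which close the response down. RA enters the nucleus and acts through RAR and RXR receptors, and in myeloid cells it is known for driving maturation away from the progenitor state. In monocytes TNF is also known to start a later wave of interferon-response genes.

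Levels are given as multiples of the median signal of the same array, and differences as log2 of RA plus TNF minus RA with the standard error from limma, a linear model fitted across all genes. Calls were made where the adjusted p (Benjamini-Hochberg over all genes tested) was under 0.05, and every adjusted p below is limma's. In bulk RNA, fewer cells of a type and less RNA per cell cannot be told apart. The arrays were made in 2 runs by their record numbers, called array set 1 (replicates 1, 2 and 3 of each group) and array set 2 (replicates 4 and 5), and the set was a term of the fit. Array medians were 31.7 ± 4.17 signal units with RA plus TNF and 34.1 ± 7.96 with RA (SD, n = 5 each). Over 9 such measures, including 3' to 5' ratios and summed markers of other cell types, the smallest adjusted p of an exact two-sided permutation test was 0.536, where the smallest unadjusted p possible was 0.00794. All 8 monocytic markers that could be measured lay above the array median in both groups, CD14 at 48.3 ± 14.6 and 2.45 ± 1.21 among them. Of lymphocyte markers 11 of 14 averaged below the array median, of erythroid and platelet markers 8 of 11, of epithelial and fibroblast markers 10 of 14 and of dendritic cell markers 8 of 11. The brightest member of each list averaged above it, at 7.94 (NKG7), 6.21 (EPOR), 41.9 (PECAM1) and 36.2 times the median (CD209). The summed epithelial and fibroblast level averaged 45.2 with RA plus TNF and 59.6 with RA, and the dendritic sum 44.7 and 42.1. PECAM1 and CD209 made up most of these 2 sums, so their tests say little about the other members.

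TNF moved transcript levels widely in RA-treated cells. Of 12396 genes tested, 952 were called higher with RA plus TNF (7.68%) and 568 lower (4.58%), which is 12.3% in either direction. Counts of list members below are to be read beside these shares. At least a 4-fold difference was reached by 157 of the rises and 50 of the falls. The median difference over all genes was 0.03. In 451 genes (3.64%) all 5 RA plus TNF arrays lay above all 5 RA arrays, and in 268 genes (2.16%) below. Rises made up 62.6% of the calls, but that split depended on scaling and on the array set: with quantile normalization 1178 genes were called higher and 1176 lower, and without centring on the array median 1159 and 1209. Array set 1 alone gave 982 higher and 270 lower, with a median of 0.17 over all genes, and array set 2 alone gave 294 higher and 486 lower, with a median of -0.15. Of the genes called higher in set 1 alone, 83.9% had the same sign in set 2, where 36.1% of all genes were positive. Of those called lower, 94.8% had the same sign. In set 2 alone, 252 of the 982 and 171 of the 270 were called in the same direction. Leaving out replicate 1 of RA plus TNF gave 697 higher and 656 lower, and leaving out replicate 5 of RA gave 1230 higher and 434 lower.

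**Figure D1:**
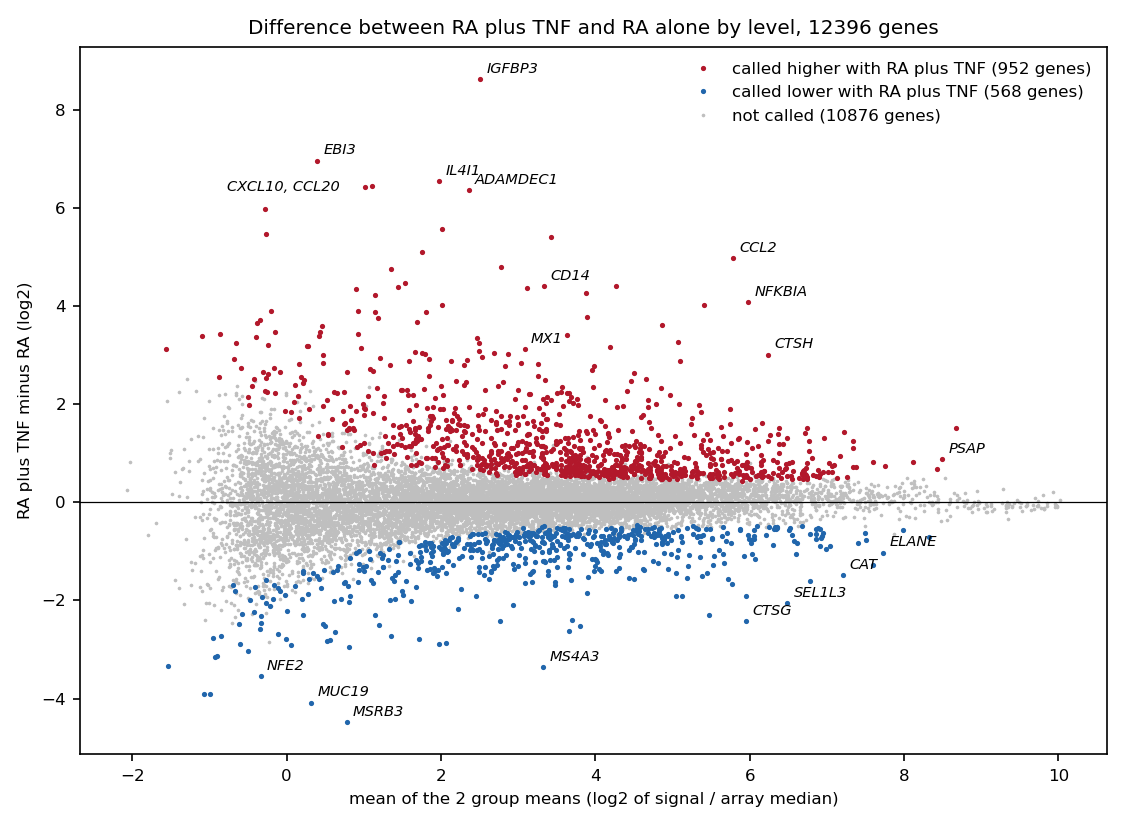
Difference between RA plus TNF and RA alone (log2, vertical axis) against the mean of the 2 group means (log2 of signal over array median, horizontal axis), 1 point per gene. The 952 genes called higher are red, the 568 called lower blue and the rest grey; the highest points are IGFBP3, EBI3 and IL4I1, and the lowest are MSRB3 and MUC19.

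The NF-kB feedback genes gave the smallest p-values. NFKBIA, which encodes the inhibitor IkBa that holds NF-kB in the cytoplasm, had 348, 295, 310, 195 and 190 times the array median on the 5 RA plus TNF arrays, against 18.7, 13.5, 15.2, 11.1 and 20.4 on the 5 RA arrays. The groups lay far apart, and the 2 RA plus TNF arrays of set 2 were the lowest of their group. The difference was 16.8-fold (log2 4.07 ± 0.18, adjusted p 9.31e-19). A second, dimmer probe set for NFKBIA differed by 0.09 and was not called, so the rise rests on 1 probe set. TNFAIP3, the ubiquitin-editing enzyme A20 that shuts the pathway off, had 118, 99.3, 95.9, 86.5 and 111 times the array median with RA plus TNF, against 7.95, 5.61, 7.75, 8.65 and 13.5 with RA. It rose 12.2-fold (log2 3.60 ± 0.18, adjusted p 4.24e-17), with no overlap between the groups.

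Of 21 tested NF-kB subunits, inhibitors and adaptors, 11 rose (52.4%, beside 7.68% over all genes) and none fell, with a median difference of 1.05. The inhibitor NFKBIE rose by 1.94 ± 0.17 on the log2 scale (adjusted p 1.38e-10) and RELB, a subunit of the alternative NF-kB pathway, by 2.28 ± 0.24 (adjusted p 5.63e-09). Fitted on array set 1, the list also gave 11 rises, and fitted on set 2 it gave 9.

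The promoters of both feedback genes are shown because each carries matches to the NF-kB consensus, the sequence bound by NF-kB dimers. Sequences are from RefSeq, build GRCh38.p14, read 5′ to 3′ on the gene's strand, and give the 250 bases before the gene start. Capitals mark the matches. That of NFKBIA lies at chr14:35404750-35404999 on the minus strand, with 1 match that starts 81 bases before the gene. That of TNFAIP3 lies at chr6:137867009-137867258 on the plus strand, with 2 matches that start 67 and 55 bases before it.
NFKBIA: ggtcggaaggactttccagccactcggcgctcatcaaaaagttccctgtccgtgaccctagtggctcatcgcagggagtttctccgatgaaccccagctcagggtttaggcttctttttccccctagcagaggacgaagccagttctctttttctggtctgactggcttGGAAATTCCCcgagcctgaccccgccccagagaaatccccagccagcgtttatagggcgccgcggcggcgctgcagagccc
TNFAIP3: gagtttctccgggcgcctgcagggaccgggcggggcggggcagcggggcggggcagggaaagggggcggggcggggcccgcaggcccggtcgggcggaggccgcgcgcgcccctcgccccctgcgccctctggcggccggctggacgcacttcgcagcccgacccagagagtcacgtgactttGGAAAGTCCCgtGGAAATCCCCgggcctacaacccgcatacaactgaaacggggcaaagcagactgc

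Promoters of 300 bases, 250 before the gene start and 50 after it, were matched by symbol for 10091 of the 12396 genes tested. Searched on both strands, the NF-kB consensus was present in 17.8% of the 766 promoters of genes called higher, 13.7% of the 460 of genes called lower and 13.1% of all those tested. It was present in 10.8% of all 27305 promoters in the table. A match is a run of letters and does not show that the factor was bound.

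**Figure D2:**
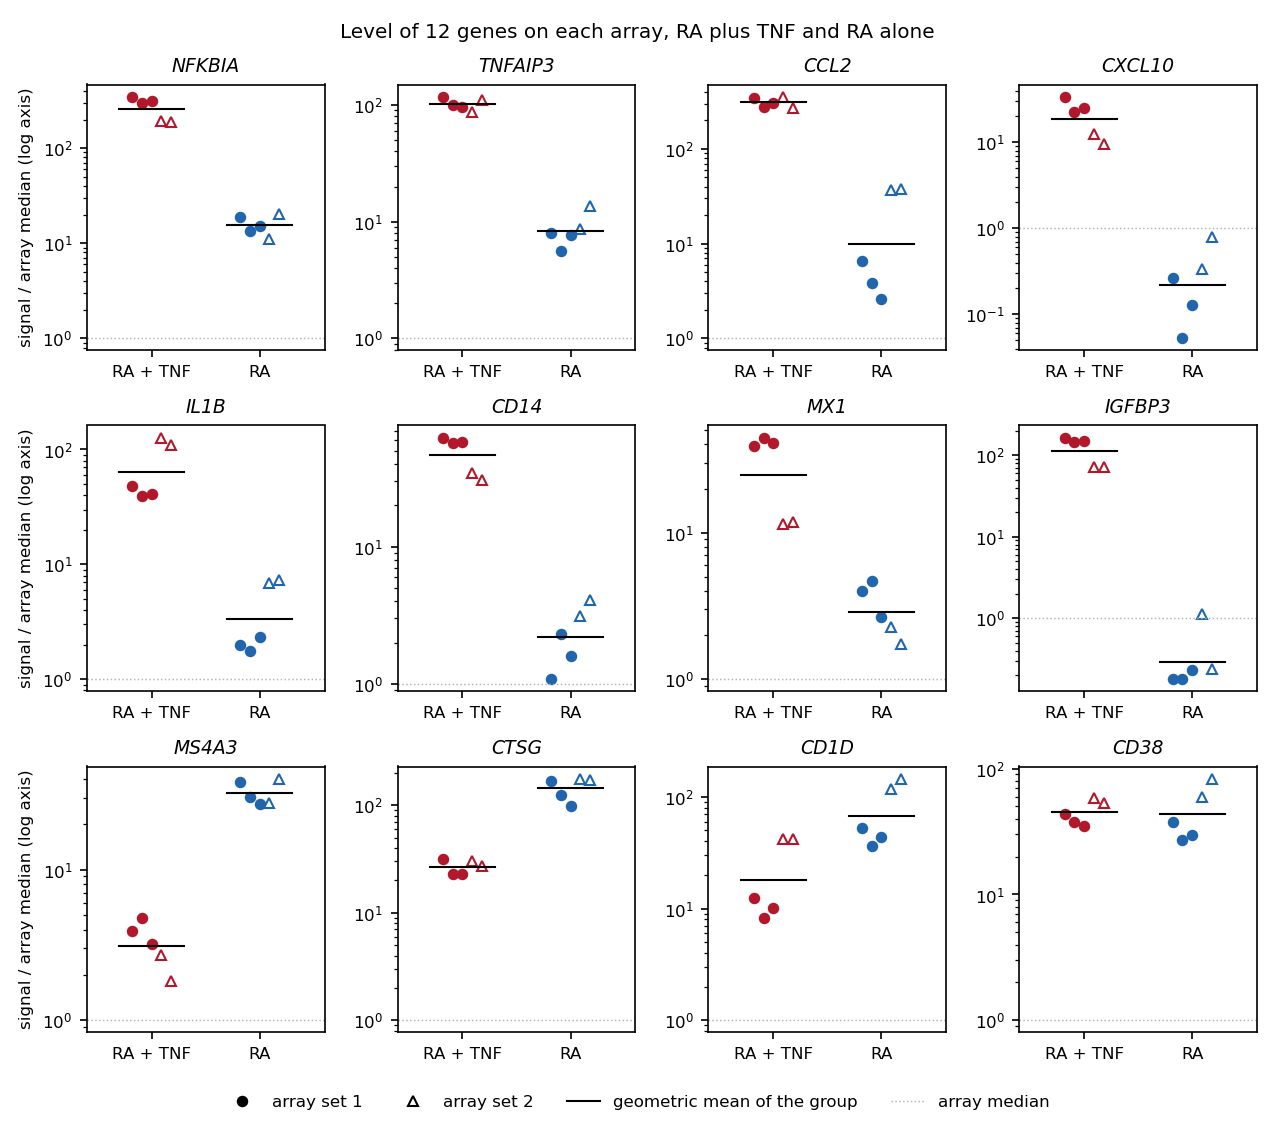
Level of 12 genes on each of the 5 RA plus TNF arrays (red, left) and the 5 RA arrays (blue, right), as signal over array median on a log axis; filled circles are array set 1, open triangles set 2, black lines geometric means. Groups do not overlap except for CD1D and CD38; in CCL2 the RA arrays of set 2, at 36.5 and 37.4, lie above those of set 1, at 2.63 to 6.56.

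Chemokines, secreted proteins that draw leukocytes to a site, were among the largest rises. CCL2, which attracts monocytes, had 347, 277, 305, 356 and 267 times the array median with RA plus TNF, against 6.56, 3.88, 2.63, 36.5 and 37.4 with RA. All RA plus TNF arrays were high, while the RA arrays split by array set. The gene rose 31.4-fold (log2 4.97 ± 0.38, adjusted p 2.79e-12), by 6.25 in set 1 and 3.06 in set 2.

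CXCL8, which attracts neutrophils, had 184, 156, 176, 153 and 185 times the array median with RA plus TNF, against 5.85, 5.95, 5.53, 17.3 and 39.1 with RA. Again the RA arrays of set 2 were the higher ones, and the groups did not overlap. It rose 16.1-fold (log2 4.01 ± 0.34, adjusted p 3.74e-11). Of 14 CXC chemokines with a probe set, 5 passed the filter on dim genes. Of these 3 rose (60%, beside 7.68% over all genes) and none fell. A gene bright only in the TNF-treated arrays could pass that filter, which can raise such a share of rises. CXCL10, which attracts activated T cells, had 34.1, 22.5, 25.2, 12.5 and 9.51 times the array median with RA plus TNF, against 0.268, 0.0526, 0.127, 0.338 and 0.802 with RA, where every array was below its median. CXCL11, a ligand of the same receptor, rose by 2.64 ± 0.67 on the log2 scale (adjusted p 0.00557), though it was not called in set 2 alone.

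Of 14 CC chemokines with a probe set, 9 passed the same filter, of which 5 rose and 2 fell (55.6% and 22.2%). CCL20, which attracts immature dendritic cells, rose by 6.44 ± 0.90 (log2, adjusted p 1.58e-06), CCL4 by 5.56 ± 0.52 (adjusted p 3.55e-10) and CCL5, a chemokine for T cells and monocytes, by 1.49 ± 0.21 (adjusted p 1.66e-06). Receptors for chemokines went the other way, with 60% of those tested called lower, beside 4.58% over all genes. Of 5 tested, none rose and 3 fell: CXCR2, the receptor for CXCL8, by 1.40 ± 0.26 (adjusted p 0.000178), CX3CR1, the fractalkine receptor, by 0.97 ± 0.19 (adjusted p 0.000258) and CCR2, the receptor for CCL2, by 0.55 ± 0.17 (adjusted p 0.0224). The CCR2 call was lost in each array set alone, without the set term, without the intensity trend, with its probe sets averaged (-0.37), and without replicate 1 or 5 of RA or replicate 2 or 3 of RA plus TNF.

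Large ratios of dim genes depend on the low signals. IGFBP3, a secreted protein that binds insulin-like growth factors, showed the largest rise of all, with 165, 145, 148, 71.9 and 72.6 times the array median with RA plus TNF, against 0.178, 0.178, 0.231, 1.13 and 0.237 with RA. Its difference was 8.62 ± 0.45 (log2, adjusted p 1.09e-16) and 7.12 after 16 signal units were added before the log. The same offset reduced CCL20 to 4.73, EBI3 to 4.55 and ADAM28, a membrane metalloprotease, to 3.26, against 5.47 without it. It also reduced IL32 from 5.97 to 3.50 and CXCL10 from 6.43 to 4.70. All of them were still called.

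Of 27 interleukins and growth factors with a probe set, 13 passed the filter on dim genes, with the same limit as for chemokines. Of these 5 rose (38.5%, beside 7.68% over all genes) and none fell. IL1B, the inflammatory cytokine interleukin 1 beta, had 48.4, 39.7, 40.8, 127 and 109 times the array median with RA plus TNF, against 2.01, 1.76, 2.34, 6.95 and 7.32 with RA. Both groups were higher in set 2, and the difference was 4.40 in set 1 and 4.04 in set 2. It rose 19.1-fold (log2 4.26 ± 0.30, adjusted p 4.49e-13). EBI3, a subunit shared by interleukins 27 and 35, rose by 6.96 ± 0.60 (log2, adjusted p 6.20e-11), IL32 by 5.97 ± 0.64 (adjusted p 7.34e-09) and VEGFA, the growth factor of blood vessels, by 2.34 ± 0.34 (adjusted p 3.98e-06).

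The transcript of TNF itself had 3.88, 0.451, 2.97, 8.52 and 6.29 times the array median with RA plus TNF, against 0.693, 0.645, 1.39, 1.61 and 1.45 with RA. Replicate 2 of RA plus TNF was the lowest of all 10 arrays, so the groups overlapped. The difference of 1.52 ± 0.48 passed the test narrowly (adjusted p 0.0301), and the call was lost without replicate 1, 2, 4 or 5 of RA or replicate 1, 3, 4 or 5 of RA plus TNF, and in array set 1 alone. Of 18 tested TNF family ligands and receptors 6 rose (33.3%, beside 7.68% over all genes) and none fell. TNFRSF9, a T-cell co-stimulatory receptor also known as 4-1BB, rose by 4.01 ± 0.63 (adjusted p 1.36e-05), TNFRSF10B, a death receptor for TRAIL, by 1.66 ± 0.23 (adjusted p 1.32e-06), CD40 by 1.18 ± 0.18 (adjusted p 4.59e-06) and TNFRSF1B, the second TNF receptor, by 1.11 ± 0.19 (adjusted p 5.38e-05).

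In the whole fit, interferon-response genes had the largest share of rises among the lists, which were chosen with earlier results of these data known. Of 42 tested members of the interferon-response list, which holds antiviral effectors and their sensors, 36 rose and none fell. The share of rises was 85.7%, beside 7.68% over all genes, and the median difference 1.73 against 0.03. MX1, an antiviral GTPase, had 38.8, 44.6, 41.2, 11.4 and 11.9 times the array median with RA plus TNF, against 3.99, 4.65, 2.68, 2.28 and 1.75 with RA. The groups did not overlap, but the RA plus TNF arrays of set 2 reached under 12 times the median where those of set 1 reached 38.8 or more. It rose 8.66-fold (log2 3.11 ± 0.22, adjusted p 2.70e-13). TRIM22, an antiviral ubiquitin ligase, rose by 3.07 ± 0.25 (adjusted p 7.96e-12), OAS2, which makes the messenger that activates RNase L, by 2.57 ± 0.22 (adjusted p 4.94e-11) and EPSTI1 by 2.83 ± 0.27 (adjusted p 5.77e-10). Fitted on array set 1, 38 members were called, with a median of 2.24, and fitted on set 2, 17 were, with a median of 0.96. None was called lower in either.

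Signalling factors of the interferon pathway moved less. Of 14 tested, 2 rose and 2 fell (14.3% each, beside 7.68% and 4.58% over all genes). The risers were IRF7, the factor that amplifies type I interferon, with a difference of 1.38 ± 0.23 (adjusted p 3.12e-05), and IRF9, a subunit of the complex that binds interferon-response elements, with 1.06 ± 0.18 (adjusted p 4.24e-05). Both lost the call in array set 2 alone. Among receptors, IFNGR2, a chain of the interferon gamma receptor, rose by 1.90 ± 0.18 (adjusted p 3.55e-10).

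Promoters of CXCL10, EPSTI1 and TAP1 are shown because they carry the core of the interferon-stimulated response element, searched as a pair of GAAA runs with any 2 bases between them, on either strand. Capitals mark that core and matches to the NF-kB consensus. That of CXCL10 lies at chr4:76023498-76023747 on the minus strand, with the core 221 bases before the gene start and NF-kB matches at 177 and 122 bases. That of EPSTI1 lies at chr13:42992242-42992491 on the minus strand, with the core 50 bases before the start. That of TAP1, a peptide transporter for antigen presentation, lies at chr6:32853705-32853954 on the minus strand, with 2 overlapping cores at 134 and 128 bases and an NF-kB match at 72 bases.
CXCL10: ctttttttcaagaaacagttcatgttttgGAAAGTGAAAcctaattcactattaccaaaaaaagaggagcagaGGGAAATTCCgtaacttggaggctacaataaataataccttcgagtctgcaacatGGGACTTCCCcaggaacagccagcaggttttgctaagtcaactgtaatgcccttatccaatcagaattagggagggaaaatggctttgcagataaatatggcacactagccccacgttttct
EPSTI1: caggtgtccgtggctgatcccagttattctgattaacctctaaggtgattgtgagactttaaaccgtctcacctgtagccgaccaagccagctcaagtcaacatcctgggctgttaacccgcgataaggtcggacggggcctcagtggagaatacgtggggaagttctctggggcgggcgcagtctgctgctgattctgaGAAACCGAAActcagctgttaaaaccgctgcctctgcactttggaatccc
TAP1: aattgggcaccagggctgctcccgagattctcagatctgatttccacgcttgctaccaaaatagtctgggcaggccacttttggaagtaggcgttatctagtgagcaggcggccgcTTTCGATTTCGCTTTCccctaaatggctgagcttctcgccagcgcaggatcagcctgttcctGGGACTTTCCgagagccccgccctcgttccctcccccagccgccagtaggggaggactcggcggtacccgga

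The core was present in 7.31% of the 766 promoters of genes called higher, 3.7% of the 460 of genes called lower, 2.83% of the 10091 tested and 3.65% of all 27305 in the table. Of 33 matched promoters of the interferon-response list, 23 held it (69.7%).

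Antigen presentation moved in part. Of 11 tested genes for MHC class II and lipid antigens, 6 rose and 1 fell (54.5% and 9.09%, beside 7.68% and 4.58% over all genes). Array set 2 alone gave 2 rises and 1 fall. HLA-DRA, the alpha chain of HLA-DR, had 53.1, 39.8, 49.8, 35.2 and 30.02 times the array median with RA plus TNF, against 10.1, 5.24, 7.29, 15.0 and 21.1 with RA. The groups stood apart in both sets, by 2.70 in set 1 and 0.87 in set 2, with a difference of 1.97 ± 0.27 in the whole fit (adjusted p 9.07e-07). CD74, the invariant chain that escorts class II molecules, rose by 1.52 ± 0.19 (adjusted p 2.96e-07), with overlapping groups. The single fall was CD1D, which presents lipids to natural killer T cells, with 12.5, 8.30, 10.2, 42.3 and 41.8 times the array median with RA plus TNF, against 52.7, 36.1, 43.5, 118 and 146 with RA. It fell by 1.91 ± 0.46 (adjusted p 0.00322), in each set but with overlap between the sets. Of 16 tested genes for MHC class I processing 3 rose (18.8%, beside 7.68% over all genes) and none fell. TAP1 rose by 1.03 ± 0.20 (adjusted p 0.000257), a call not made in array set 2 alone. In that set the class I list had no rise and 1 fall.

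Sensors of microbes rose more often than they fell. Of 22 tested, 10 rose and 1 fell (45.5% and 4.55%, beside 7.68% and 4.58% over all genes). In array set 2 alone 4 rose and 1 fell. CD14, the co-receptor that hands lipopolysaccharide to TLR4, had 62.2, 56.7, 57.5, 34.4 and 30.7 times the array median with RA plus TNF, against 1.08, 2.32, 1.60, 3.13 and 4.12 with RA. It rose 21.1-fold (log2 4.40 ± 0.45, adjusted p 3.41e-09), with wide separation in both sets. LY96, the partner of TLR4 known as MD-2, rose by 2.28 ± 0.49 (adjusted p 0.00108), NOD2, a sensor of bacterial cell walls, by 1.57 ± 0.27 (adjusted p 5.78e-05) and TLR2 by 1.20 ± 0.18 (adjusted p 7.43e-06).

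Of 21 tested genes of the oxidative burst and of oxidant defence, 11 rose and 1 fell. These shares were 52.4% and 4.76%, beside 7.68% and 4.58% over all genes. In array set 2 alone 5 rose and 1 fell. CYBB, the catalytic subunit of the NADPH oxidase, rose 13.7-fold (log2 3.77 ± 0.24, adjusted p 2.43e-14), with 41.9 to 68.9 times the median with RA plus TNF and 2.20 to 7.88 with RA. SOD2, the mitochondrial superoxide dismutase, rose by 2.50 ± 0.29 (adjusted p 5.56e-08). CAT, catalase, fell by 1.48 ± 0.17 (adjusted p 2.68e-08), with 72.8 to 106 times the median with RA plus TNF and 171 to 346 with RA. Of 15 complement genes 4 rose and 1 fell (26.7% and 6.67%), while array set 2 alone gave 3 higher and 3 lower, with a median of -0.34. The central component C3 rose by 2.87 ± 0.47 (adjusted p 2.36e-05) and the receptor C3AR1 by 3.05 ± 0.44 (adjusted p 2.29e-06).

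Secreted proteases and their relatives included 7 rises (43.8%, beside 7.68% over all genes) and no fall among 16 tested. ADAMDEC1, a protease of differentiating macrophages, rose by 6.36 ± 0.44 (log2, adjusted p 2.70e-13). MMP9, gelatinase B, had 124, 103, 80.4, 79.8 and 65.6 times the array median with RA plus TNF, against 3.35, 1.98, 2.30, 7.12 and 11.98 with RA, and rose 21.1-fold (log2 4.40 ± 0.29, adjusted p 5.60e-14). MMP2, gelatinase A, rose by 1.74 ± 0.23 (adjusted p 8.08e-07) and PLAUR, the urokinase receptor, by 2.07 ± 0.21 (adjusted p 2.18e-09). Of 21 lysosomal hydrolases 7 rose (33.3%) and none fell. CTSH, the aminopeptidase cathepsin H, had 192 to 247 times the median with RA plus TNF and 15.4 to 46.1 with RA, and rose by 3.00 ± 0.18 (adjusted p 5.06e-15). In array set 2 alone 2 lysosomal genes were called higher and the list's median was -0.12, against 8 and 0.68 in set 1 alone.

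Adhesion and metabolic genes also contributed strong rises. ICAM1, the ligand of leukocyte integrins, had 26.3 to 68.6 times the array median with RA plus TNF and 1.05 to 3.21 with RA, and rose 20.5-fold (log2 4.36 ± 0.38, adjusted p 6.20e-11). CD44, the receptor for hyaluronan, rose by 1.60 ± 0.17 (adjusted p 3.41e-09), and the immune receptors SLAMF7 and SLAMF8 by 3.87 ± 0.55 (adjusted p 2.35e-06) and 5.40 ± 0.41 (adjusted p 2.63e-12). Of 25 tested adhesion and co-stimulation genes 9 rose and 3 fell (36% and 12%, beside 7.68% and 4.58% over all genes). In array set 2 alone 5 rose and 4 fell. Among 15 genes of tryptophan, arginine and NAD metabolism 7 rose (46.7%) and none fell. IL4I1, a secreted amino acid oxidase, had 34.3 to 41.8 times the array median with RA plus TNF and 0.104 to 1.38 with RA (log2 difference 6.55 ± 0.48, adjusted p 1.06e-12). TDO2, which opens the ring of tryptophan, rose by 5.09 ± 0.62 (adjusted p 1.22e-07) and GCH1, the entry enzyme of tetrahydrobiopterin synthesis, by 2.25 ± 0.24 (adjusted p 5.47e-09). CHST2, a sulfotransferase, rose by 3.24 ± 0.22 (adjusted p 1.35e-13) and TIFAB by 2.77 ± 0.19 (adjusted p 1.49e-13), both without overlap.

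Granule genes of immature myeloid cells fell. Of 12 tested members of that list none rose and 9 fell (75%, beside 4.58% over all genes), with a median of -0.92. Each of the 9 had no overlap between groups, which 2.16% of all genes reached in that direction. MS4A3, a membrane protein of granulocyte and monocyte progenitors, had 3.92, 4.79, 3.22, 2.71 and 1.81 times the array median with RA plus TNF, against 38.3, 30.2, 27.3, 27.6 and 40.1 with RA. It fell by 3.37 ± 0.21 (log2, adjusted p 2.70e-14), a 10.3-fold difference seen in both sets. CTSG, the granule protease cathepsin G, had 31.5, 23.1, 22.8, 30.3 and 27.1 times the array median with RA plus TNF, against 167, 124, 98.3, 177 and 171 with RA, and fell by 2.43 ± 0.16 (adjusted p 4.63e-14). The related proteases PRTN3 and ELANE fell by 1.91 ± 0.19 (adjusted p 1.87e-09) and 1.03 ± 0.14 (adjusted p 1.18e-06). The count of 9 was the same in array set 2 alone and was 7 in set 1 alone.

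Other falls with small p-values were PLAC8 (log2 -2.31 ± 0.16, adjusted p 4.49e-13), SEL1L3 (-2.06 ± 0.16, adjusted p 5.75e-12), CACNA2D3, a calcium channel subunit (-2.63 ± 0.22, adjusted p 4.06e-11), and the receptor tyrosine kinase RET (-1.92 ± 0.17, adjusted p 1.28e-10). The largest falls belonged to dimmer genes. MSRB3, a methionine sulfoxide reductase, had 0.872, 1.41, 0.215, 0.293 and 0.0818 times the array median with RA plus TNF, against 10.8, 10.05, 9.59, 4.16 and 8.03 with RA (log2 -4.48 ± 0.42, adjusted p 3.14e-10). NFE2, an erythroid and megakaryocytic transcription factor, fell by 3.54 ± 0.69 (adjusted p 0.000259), CAV1, caveolin, by 2.86 ± 0.29 (adjusted p 1.75e-09) and HK3, the myeloid hexokinase, by 2.94 ± 0.52 (adjusted p 7.50e-05). In HK3 the groups overlapped. The other large falls were MUC19, DGKG, SEMA6A, SYNPO2, MROCKI, KALRN and LSP1, at -4.08 to -2.79. The call of DGKG was lost in each array set alone and without replicate 2 or 3 of RA. That of LSP1 was lost in set 1 alone and without replicate 4 or 5 of RA or replicate 4 of RA plus TNF, and that of SEMA6A in set 2 alone.

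Counts of monocyte and macrophage markers and of myeloid transcription factors depended on the array set. Of 19 markers tested 8 rose and 1 fell in the whole fit, while set 2 alone gave 2 higher and 3 lower. In the whole fit these shares were 42.1% and 5.26%, beside 7.68% and 4.58% over all genes. S100A8 and S100A9, the subunits of calprotectin, rose by 2.09 ± 0.27 (adjusted p 4.99e-07) and 1.38 ± 0.22 (adjusted p 1.48e-05), but both groups overlapped and neither was called in array set 2 alone, where the differences were 0.64 and 0.61. Of 28 transcription factors 11 rose and 2 fell (39.3% and 7.14%), and set 2 alone gave 3 higher and 2 lower. CEBPD, an inflammatory C/EBP factor, rose by 1.36 ± 0.16 (adjusted p 6.65e-08), and the AP-1 factors FOS and JUNB by 1.58 ± 0.23 (adjusted p 3.02e-06) and 1.45 ± 0.21 (adjusted p 3.53e-06). KLF6, a zinc finger factor of macrophages, rose by 1.05 ± 0.20 (adjusted p 0.000221), a call not made in set 2 alone.

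Survival genes changed at selected members. Of 25 tested genes of the BCL2 family and apoptosis 5 rose and 2 fell (20% and 8%, beside 7.68% and 4.58% over all genes). Array set 2 alone gave 2 rises and 2 falls. BCL2A1, an NF-kB target that blocks cell death, had 34.6 to 52.1 times the array median with RA plus TNF and 2.37 to 14.0 with RA, and rose by 2.78 ± 0.30 (adjusted p 9.40e-09). BCL2, the founding anti-apoptotic member, went the other way, with 4.37 to 8.06 times the median with RA plus TNF and 12.03 to 24.3 with RA, and fell by 1.62 ± 0.19 (adjusted p 4.56e-08). The other 2 BCL2 probe sets that passed the filter differed by -0.84 and -0.20, and neither was called. The pro-apoptotic BIK fell by 1.19 ± 0.18 (adjusted p 9.34e-06) and BID rose by 1.01 ± 0.18 (adjusted p 6.29e-05). The BID groups overlapped, with differences of 1.49 in set 1 and 0.29 in set 2, where it was not called.

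Housekeeping lists differed in how many members were called. Of 27 tested genes of the respiratory chain 2 rose and none fell (7.41% higher, beside 7.68% over all genes), with a median of 0.15. Of 35 cell cycle genes 6 rose and none fell (median 0.25). Of 25 genes of glycolysis and the hypoxia response 5 rose and 1 fell, and of 19 genes of MYC and ribosome biogenesis 3 rose and 1 fell. Shares of rises were 17.1%, 20% and 15.8% in that order, beside the same 7.68%. Those of falls were 0%, 4% and 5.26%, beside 4.58%. Among 18 genes of sterol and fatty acid synthesis 6 rose and none fell, a share of 33.3%. The medians of the respiratory, cell cycle, glycolysis and sterol lists were -0.26, -0.02, -0.16 and -0.04 in array set 2 alone, and no respiratory, cell cycle or sterol gene was called there. HMGCS1, an early enzyme of cholesterol synthesis, rose by 1.06 ± 0.20 in the whole fit (adjusted p 0.000255) and by 0.51 in set 2.

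**Figure D3:**
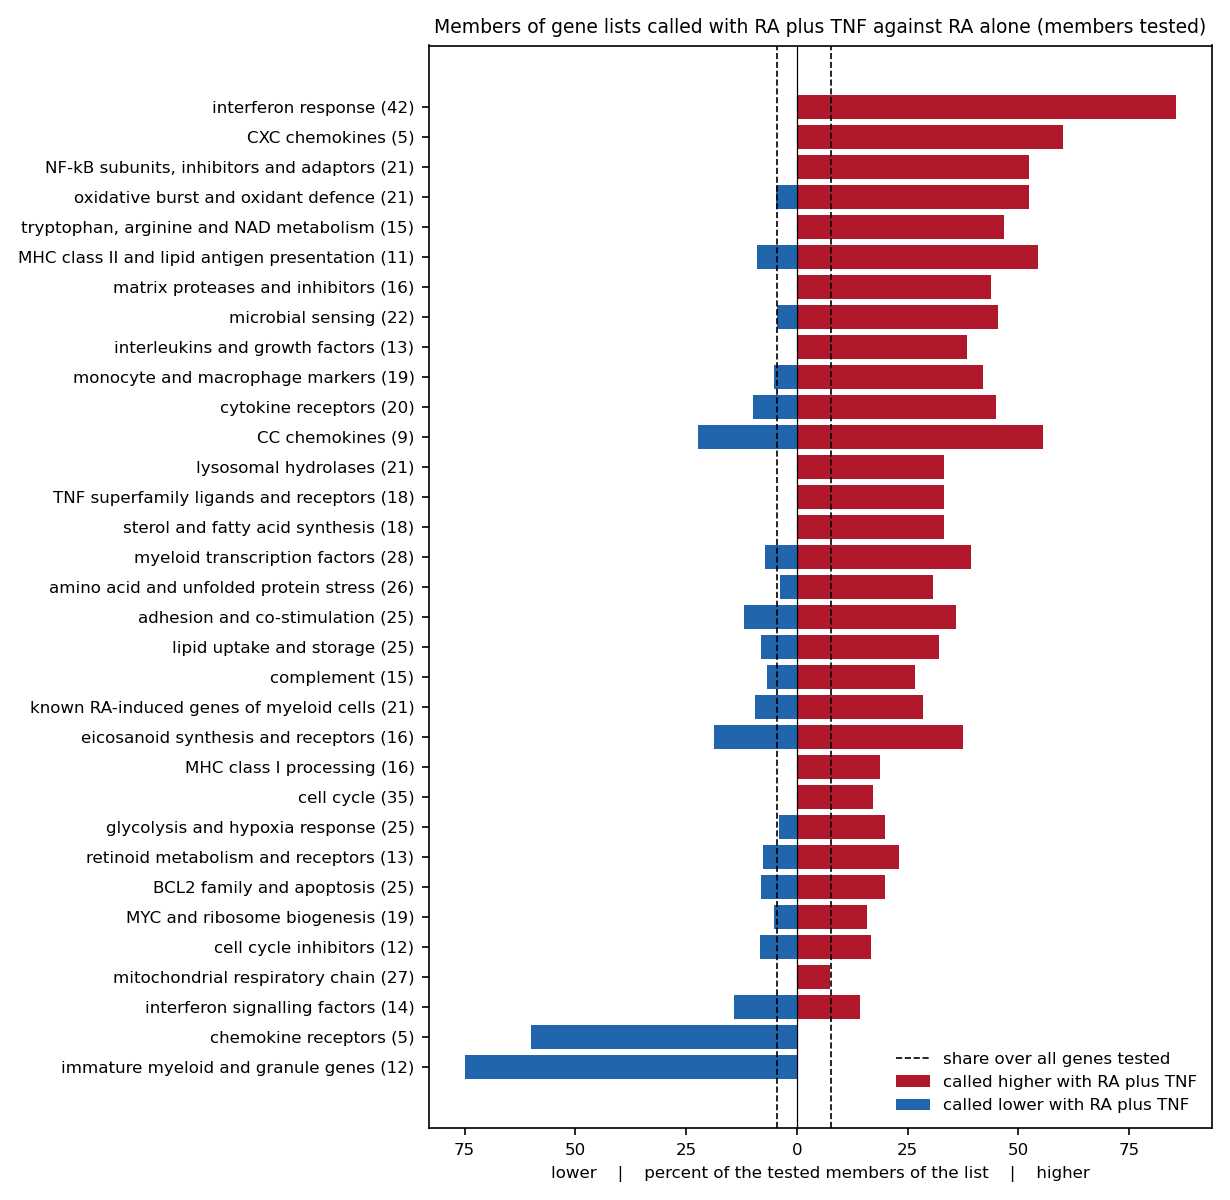
Percent of the tested members of 33 gene lists called higher (red, to the right) and lower (blue, to the left) with RA plus TNF against RA alone; the number tested follows each name. Dashed lines mark 7.68% and 4.58%, the shares over all genes tested. The interferon response, with 36 of 42 higher, and the immature myeloid genes, with 9 of 12 lower, lie at the ends.

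Genes that RA itself is known to induce in myeloid cells were followed to see how they stood when TNF was added. Of 21 tested, 6 rose, 2 fell and 13 were not called. The shares called were 28.6% higher and 9.52% lower, beside 7.68% and 4.58% over all genes. Array set 2 alone gave 3 higher and 1 lower. CD38, an NAD hydrolase and a marker of the RA response, had 43.9, 37.9, 34.8, 58.4 and 53.6 times the array median with RA plus TNF, against 37.9, 26.9, 29.5, 59.9 and 83.3 with RA. The groups overlapped throughout, and the difference was 0.05 ± 0.19 (adjusted p 0.919). DHRS3, a reductase that limits RA synthesis, differed by 0.43 ± 0.31 (adjusted p 0.443), TGM2, transglutaminase, by 0.11 ± 0.67 (adjusted p 0.958) and ITGAM, the integrin CD11b, by 0.02 ± 0.17 (adjusted p 0.969). RARA, an RA receptor, differed by 0.22 ± 0.20 (adjusted p 0.584), and its probe sets disagreed in sign. CYP26A1, CYP26B1 and RARB, classical targets of RA receptors, were too dim to pass the filter.

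Members of the RA-induced list that rose included G0S2, an inhibitor of triglyceride breakdown, by 3.27 ± 0.23 (adjusted p 4.49e-13), ASB2, a ubiquitin ligase subunit induced by RA in leukaemia cells, by 2.57 ± 0.39 (adjusted p 7.55e-06), and TNFAIP2 by 1.75 ± 0.17 (adjusted p 1.43e-09). Of 13 tested genes of retinoid metabolism and receptors 3 rose and 1 fell (23.1% and 7.69%, beside 7.68% and 4.58% over all genes). The fall was DHRS9, a retinol dehydrogenase, by 1.60 ± 0.17 (adjusted p 8.71e-09). In array set 2 alone none of this list rose and 1 fell.

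A wider set of RA-responsive genes came from the 16 h arrays, all of them in array set 2. There 219 of 12564 genes were called higher with RA than with vehicle (1.74%) and 179 lower (1.42%). Of the 219 genes higher at 16 h, 47 were higher at 40 h with RA plus TNF than with RA (21.5%) and 36 were lower (16.4%), beside 7.68% and 4.58% over all genes. Their median difference was 0.03, the same as over all genes. Of 177 tested genes lower at 16 h, 30 were higher (16.9%) and 26 lower (14.7%). Shares above the background in both directions were thus present in each list. With quantile normalization at both steps, 91 of 489 genes higher at 16 h were higher at 40 h with RA plus TNF and 135 were lower.

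Among genes called higher with RA at 16 h, CCL2, CXCL8, G0S2 and EMP2 were higher with TNF added, and SEL1L3, UBASH3B, JCAD and FBP1 were lower. The 16 h call may not hold for array set 1, which has no 16 h arrays. For CCL2 at 40 h, vehicle arrays lay at 2.12 to 4.41 times the median. RA arrays of set 1 lay at 2.63 to 6.56 and those of set 2 at 36.5 and 37.4. The RA arrays of CXCL8 split in the same way. FBP1, a gluconeogenic enzyme, had 10.9 to 20.4 times the array median with RA plus TNF and 28.2 to 60.4 with RA (log2 -1.36 ± 0.17, adjusted p 2.44e-07). UBASH3B, a phosphatase that dampens receptor signalling, fell by 1.27 ± 0.15 (adjusted p 4.57e-08). Among genes lowered by RA at 16 h, SLC1A3, a glutamate transporter, had 11.8 to 17.6 times the median with RA plus TNF and 1.07 to 3.65 with RA (log2 2.90 ± 0.25, adjusted p 4.94e-11). FEZ1 rose by 2.47 ± 0.20 (adjusted p 6.77e-12), ANXA2, annexin A2, by 1.59 ± 0.16 (adjusted p 1.85e-09), and TNFAIP8 by 1.96 ± 0.20 (adjusted p 1.60e-09). DEPTOR, an inhibitor of mTOR, was lowered at 16 h and fell by a further 1.97 ± 0.25 with TNF added (adjusted p 1.82e-07).

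The TNF effect in RA-treated cells was compared with the TNF effect in cells without RA, which shares no array with it. Without RA, 834 genes were called higher with TNF than with vehicle (6.73%) and 570 lower (4.6%). Of the genes higher with TNF under RA, 537 were higher without RA too, which is 56.4% of the list with RA and 64.4% of the list without. Of the lower genes 285 were shared, which is 50.2% of the list with RA and 50% of the list without. Only 5 genes were higher with RA and lower without, and 3 the reverse. The effects correlated across genes at r = 0.600, where genes are not independent replicates.

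That test, the TNF effect with RA minus the TNF effect without RA, called 53 of 12396 genes (0.428%), 33 of them positive and 20 negative, with 917 genes at an unadjusted p under 0.05. In 42 of the 53 the TNF effect was larger in absolute size with RA, whether a rise or a fall, and in 26 the effects had opposite signs. The same shares were not counted over all genes. The TNF effect on TNFAIP3 was 3.60 with RA and 3.69 without it, with a difference of -0.08 (adjusted p 0.980) that was not called. That on MX1 was 3.11 with RA and 3.27 without it (difference -0.16, adjusted p 0.972). None of the 42 interferon-response genes was among the 53. With 0.428% called over all genes, the absence of a call in 42 genes does not set that list apart. Of the 25 genes described below for this test, 19 lost the call in array set 2 alone, 8 in set 1 alone, 18 without the set term, 16 without the intensity trend and 12 with probe sets averaged, where NFKBIA also changed sign.

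**Figure D4:**
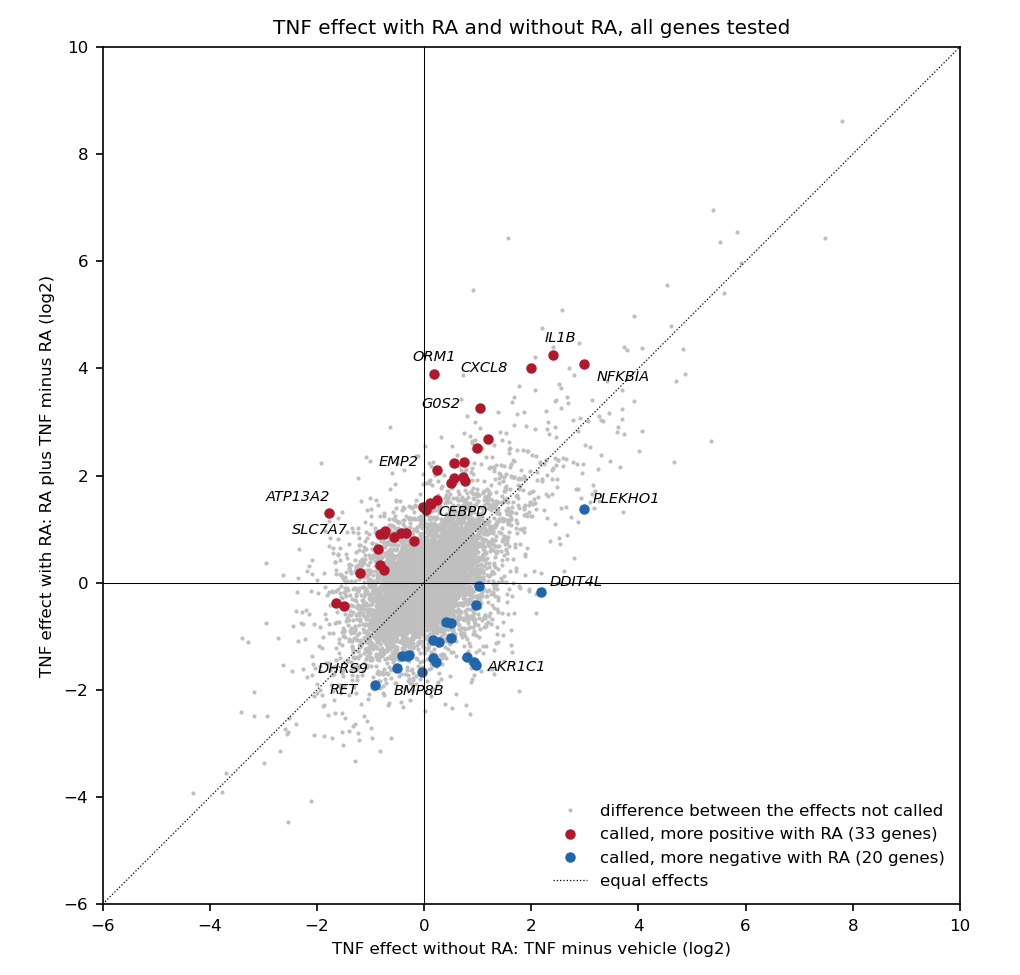
TNF effect with RA (RA plus TNF minus RA, log2, vertical axis) against TNF effect without RA (TNF minus vehicle, log2, horizontal axis), 1 point per gene tested. The 33 genes whose effect was called more positive with RA are red and the 20 called more negative blue; most points lie around the dotted line of equal effects, with r = 0.600 across genes.

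Inflammatory genes were among those with a larger rise under RA. For CXCL8 the level averaged 171 ± 15.4 with RA plus TNF and 14.7 ± 14.5 with RA, and 19.7 ± 4.30 with TNF alone (SD, n = 5 each) and 5.42 ± 2.46 with vehicle (n = 6). The TNF effect was 4.01 with RA and 2.00 without, a difference of 2.02 ± 0.47 (adjusted p 0.0370). For IL1B the TNF effect was 4.26 with RA and 2.41 without, a difference of 1.85 ± 0.42 (adjusted p 0.0322). Both calls were lost in array set 2 alone, that of IL1B in set 1 alone too, and both without replicate 1, 2 or 3 of RA or replicate 1, 2, 3 or 4 of RA plus TNF. The difference of NFKBIA (1.10, adjusted p 0.0278) turned to -0.67 when its probe sets were averaged, and its call was lost in set 2 alone and without replicate 2, 3 or 4 of RA or replicate 1, 2 or 3 of RA plus TNF.

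G0S2 averaged 114 ± 52.0 with RA plus TNF and 12.4 ± 7.31 with RA, against 11.1 ± 1.03 with TNF alone (SD, n = 5 each) and 5.88 ± 1.68 with vehicle (n = 6). Its TNF effect was larger with RA by 2.22 ± 0.32 (adjusted p 0.000167), a call that held without each of the 10 arrays in turn and in each array set alone. CEBPD rose by 1.36 with RA and differed by 0.03 without it (difference 1.33 ± 0.22, adjusted p 0.00145), with 0.98 and no call in set 2 alone. CTSB, the lysosomal protease cathepsin B, had 147 to 190 times the array median with RA plus TNF, 39.4 to 137 with RA, 28.3 to 45.9 with TNF alone and 24.7 to 52.2 with vehicle (difference 1.43 ± 0.26, adjusted p 0.00380). Its RA arrays of set 2, at 98.2 and 137, were higher than those of set 1, and the call was lost in set 2 alone (0.78), without the set term and without the trend.

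For some genes the group with RA alone had the lowest mean of the 4. NQO1, a quinone reductase of the oxidant defence, averaged 47.4 ± 11.5 with RA plus TNF and 10.1 ± 3.25 with RA, against 34.1 ± 6.34 with TNF alone and 20.6 ± 6.05 with vehicle, and its TNF effect was larger with RA by 1.51 ± 0.29 (adjusted p 0.00746). TNFAIP8, a regulator of cell death, had a TNF effect of 1.96 with RA and 0.56 without (difference 1.39 ± 0.27, adjusted p 0.00746), with the lowest group mean, 6.21 ± 1.32, under RA alone. The TNFAIP8 call was lost in each array set alone (1.30 in set 1, 1.46 in set 2), and that of NQO1 in set 2 alone (0.88) and with probe sets averaged (1.08); both were lost without the set term or the trend. ORM1, an acute phase protein, averaged 7.81 ± 3.06 with RA plus TNF and 1.20 ± 1.37 with RA, against 1.74 ± 0.737 with TNF alone and 1.63 ± 0.566 with vehicle. Its difference of 3.72 ± 0.80 (adjusted p 0.0209) rested on RA arrays of set 1 at 0.0544 to 0.335 times the median, and the call was lost in set 2 alone, without the set term, without the trend and without replicate 2 of RA plus TNF.

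Other positive differences were those of EMP2, a membrane protein (1.86 ± 0.28, adjusted p 0.000358), ATP13A2, a lysosomal transporter (3.08 ± 0.56, adjusted p 0.00380), SLC7A7, an amino acid transporter (1.74 ± 0.29, adjusted p 0.00136), SLA, an adaptor that lowers antigen receptor signals (1.69 ± 0.27, adjusted p 0.000958), NRIP1, a nuclear receptor co-repressor (1.36 ± 0.25, adjusted p 0.00424), and IFNGR2 (1.13 ± 0.25, adjusted p 0.0244). In array set 2 alone the differences of EMP2, ATP13A2, SLC7A7, SLA and NRIP1 were 1.19, 2.15, 1.02, 0.94 and 0.87, and none was called. With probe sets averaged, EMP2 (0.91) and NRIP1 (1.00) also lost the call. The IFNGR2 call was lost in set 2 alone and without replicate 1 or 3 of RA or replicate 1, 2 or 3 of RA plus TNF. For ATP13A2, SLC7A7 and SLA the TNF effect without RA was a called fall, of 1.78, 0.83 and 0.73.

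**Figure D5:**
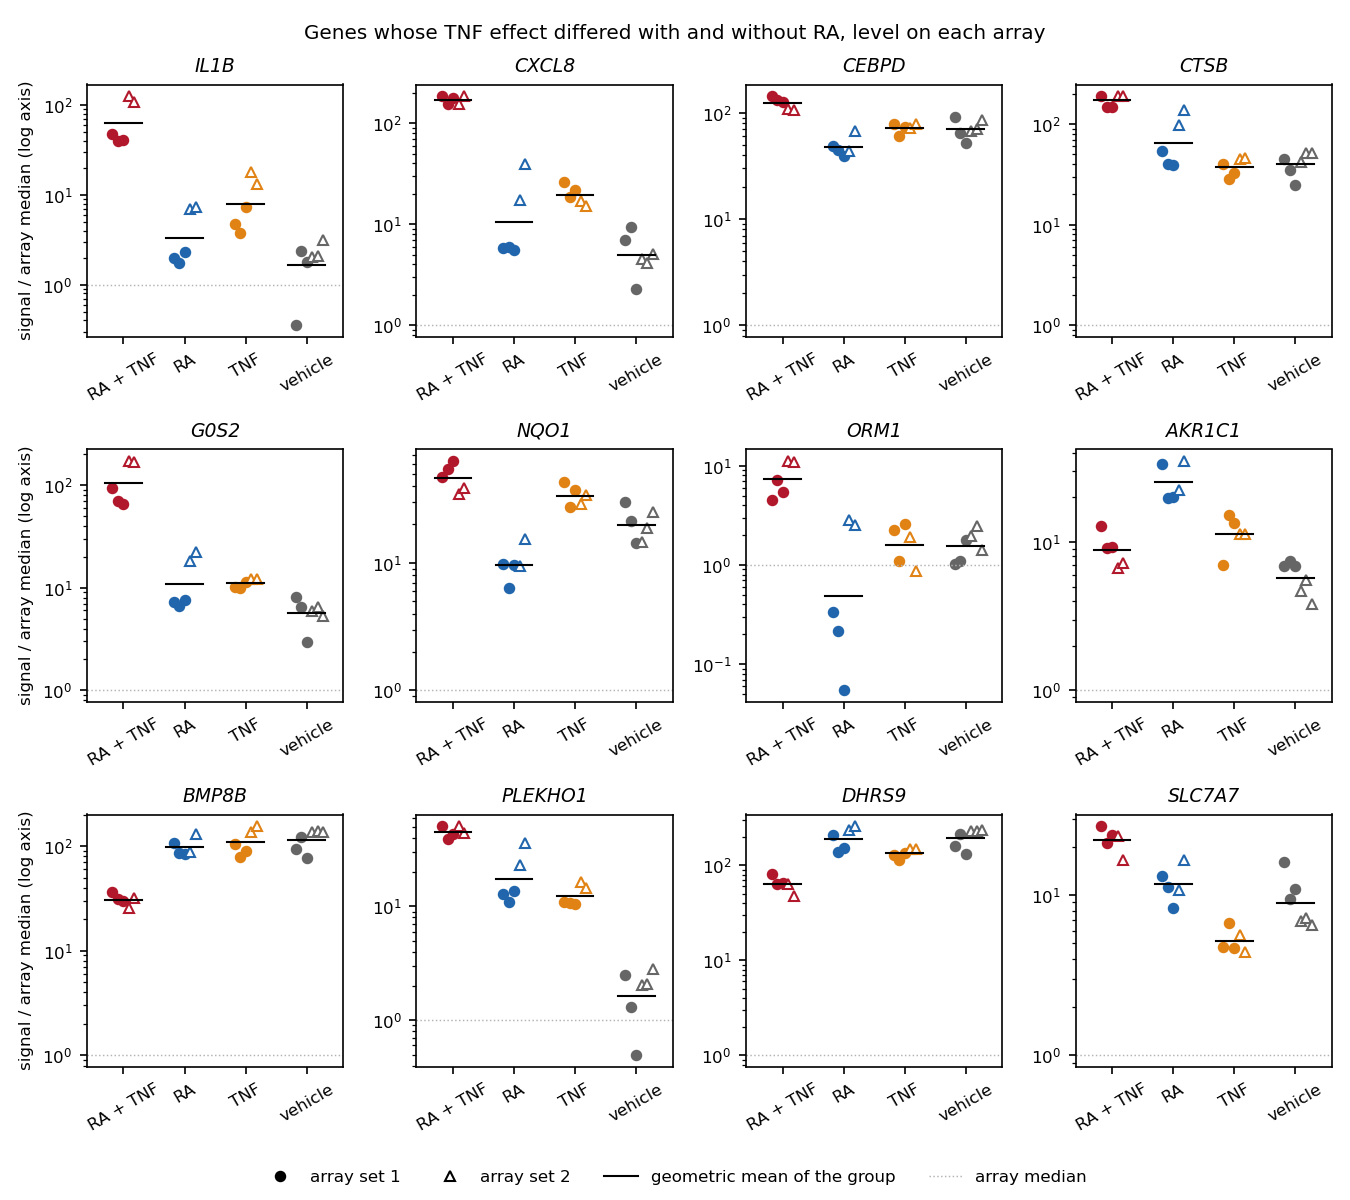
Levels of 12 genes whose TNF effect differed with and without RA, on every array of RA plus TNF (red), RA (blue), TNF (orange) and vehicle (grey), as signal over array median on a log axis; filled circles are array set 1, open triangles set 2, black lines geometric means. G0S2 lies at 65.6 to 171 with RA plus TNF and at 22.4 or less in every other group, and BMP8B at 25.7 to 36.1 with RA plus TNF and at 76.4 or more in every other group.

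On the negative side, AKR1C1 and AKR1C2, near-identical reductases of steroids and prostaglandins, had the smallest p-values. AKR1C1 had 12.8, 9.13, 9.19, 6.70 and 7.27 times the array median with RA plus TNF, against 33.5, 19.7, 20.1, 22.5 and 35.2 with RA. With TNF alone it averaged 11.7 ± 3.07 and with vehicle 5.88 ± 1.43, so that under RA it fell by 1.53 ± 0.22 with TNF (adjusted p 2.05e-06), and without RA it rose by 0.96 (adjusted p 0.00127). The difference was -2.49 (adjusted p 1.15e-05). AKR1C2 gave -2.41 (adjusted p 3.67e-05), and the probe sets may not tell the 2 transcripts apart.

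BMP8B, a bone morphogenetic protein, had 36.1, 31.2, 29.9, 25.7 and 31.7 times the array median with RA plus TNF, against 106, 86.6, 83.1, 88.5 and 131 with RA. With TNF alone it averaged 113 ± 31.8 and with vehicle 117 ± 26.3, so only the combination was low (difference -1.63 ± 0.23, adjusted p 0.000144). The number was -1.01 and no longer called when its probe sets were averaged. DHRS9 averaged 64.0 ± 12.1 with RA plus TNF and 197 ± 52.4 with RA, against 135 ± 15.1 with TNF alone and 199 ± 43.4 with vehicle (difference -1.09 ± 0.24, adjusted p 0.0261). RET was likewise lowest with RA plus TNF, with a difference of -1.01 ± 0.24 (adjusted p 0.0390). The DHRS9 call was lost in set 1 alone and without replicate 1 or 4 of RA or replicate 4 of RA plus TNF, and that of RET in each set alone and without replicate 1, 3 or 5 of RA or replicate 2, 3 or 4 of RA plus TNF.

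PLEKHO1, an adaptor that binds casein kinase, rose under both backgrounds but less under RA. It had 39.0 to 50.7 times the array median with RA plus TNF and 10.9 to 36.1 with RA, against 10.5 to 16.3 with TNF alone and 0.491 to 2.84 with vehicle. Its TNF effect was 1.38 with RA and 2.99 without (difference -1.61 ± 0.36, adjusted p 0.0308), a call lost in set 1 alone and without replicate 3 or 5 of RA or replicate 2, 4 or 5 of RA plus TNF. DDIT4L, an inhibitor of mTOR, differed by -0.18 ± 0.41 with RA, where it was not called, and was higher by 2.19 without RA (difference -2.37, adjusted p 0.0492). PWAR6, GLDN and LINC02987 had negative differences of -1.72, -1.59 and -2.19, and the second probe set of LINC02987 had the opposite sign. All 3 and DDIT4L lost the call in array set 2 alone. The calls of DDIT4L, GLDN and LINC02987 were each lost in set 1 alone and without certain arrays, DDIT4L without any array but replicate 2 of RA, GLDN without replicate 1 of RA or replicate 1 or 4 of RA plus TNF, and LINC02987 without replicate 1 or 3 of RA or replicate 3 or 4 of RA plus TNF.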

How the data were processed

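RNA of THP-1 cells was hybridised to Affymetrix HG-U133 Plus 2 arrays. The deposited values are log2 signals that the authors centred, as the values show, at a median of 0 on each array; before the log, signals on each array had been scaled to a trimmed mean of 150 and rounded to 0.1 units. GCOS is named in the submitters' processing notes, with no version given in the sources used here. Of 54675 probe sets, 41091 carried 1 gene symbol, 1801 several and 11721 none, and 62 were controls. Each of 19775 genes was represented by its brightest probe set over all 33 arrays.

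Genes were kept where the mean linear level over the 21 arrays of the 40 h experiment was above the median of all probe sets (0.883 times the array median), which left 12396. A gene bright only in the TNF-treated arrays could pass, which can raise the share of rises in a list. The 21 arrays of the 40 h experiment, with array set as a term (16 residual degrees of freedom), were fitted with limma 3.58.1 (lmFit, eBayes with an intensity trend) in R 4.3.3, with Benjamini-Hochberg adjustment. The difference between TNF effects was an interaction contrast in the same fit. The 16 h fit used 8 arrays and 12564 genes. The code was tested on simulated data. Single values were compared with exact permutation tests.

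The text names the 12 largest rises and falls with the same sign in both sets and at least 2-fold the array median in the brighter group, the 8 rises and 8 falls of smallest p, up to 4 called members of each list, the 8 largest interactions each way, 4 genes each way of the 16 h lists and a set of classical RA and TNF genes. The comparison and the lists were chosen with earlier results of these data known. Other fits changed the scaling, offset, filter, probe sets, trend, weights, arrays and array set term. The arrays give no read depth; their number limits the precision.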

Additional observations from a re-analysis of the deposited data

Results flagged for a closer look

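Of 278 group values checked for 139 genes, 12 held a single array far from the other 4 of its group (Dixon's test, critical value 0.71), and chance gives about 1 in 20. With RA plus TNF these were DGKG in replicate 5 (1.127 times the array median, high), TIFAB in replicate 2 (14.27, low), BCL2 in replicate 5 (8.061, high), RARA in replicate 5 (7.316, high) and PWAR6 in replicate 4 (1.653, low). With RA they were IGFBP3 in replicate 4 (1.132, high), EBI3 in replicate 3 (0.5468, high), CCL20 in replicate 5 (1.612, high), TDO2 in replicate 3 (0.05958, low), TNFRSF9 in replicate 4 (0.1723, low), the phospholipase PLA2G7 in replicate 3 (0.1295, low) and the sterol enzyme LSS in replicate 5 (22.69, high).

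The TNF effect differed between cells with and without RA, by limma's test of the difference itself, for 25 of the genes named. Of these calls 19 were lost in array set 2 alone, 18 without the array set term, 16 without the intensity trend and 12 with probe sets averaged. On the log2 scale the effect was more positive with RA for ORM1 (3.722), ATP13A2 (3.077), G0S2 (2.223), CXCL8 (2.015), EMP2 (1.863), IL1B (1.847), SLC7A7 (1.743), SLA (1.694), NQO1 (1.508), CTSB (1.432), TNFAIP8 (1.394), NRIP1 (1.36), CEBPD (1.33), IFNGR2 (1.134) and NFKBIA (1.097). It was more negative for AKR1C1 (-2.489), AKR1C2 (-2.406), DDIT4L (-2.369), LINC02987 (-2.187), PWAR6 (-1.715), BMP8B (-1.634), PLEKHO1 (-1.613), GLDN (-1.589), DHRS9 (-1.092) and RET (-1.009). The causes of these differences were not tested.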

How the results depend on the processing

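Of 133 called genes followed, none changed direction between RA plus TNF and RA in the alternatives run on it, of which the filter at the 75th percentile kept only 113 genes. All 133 kept the call with quantile normalization, without centring, with the offset, with array weights, with the 10 arrays alone and with the replicate block. Array set 2 alone lost 26 of these calls, set 1 alone 7 and the fit without an array set term 11. The 133 were chosen partly for small p-values and for the same sign in both sets, so they were likely to hold. Of all 1520 called genes, 622 were called in the same direction in set 2 alone, 1018 in set 1 alone and 797 without the set term. Over all genes, 511 were called higher and 286 lower without the set term, 294 higher in set 2 alone, 270 lower in set 1 alone, 1176 lower with quantile normalization and 1209 without centring. Leaving out each array in turn gave 697 to 1230 higher and 434 to 656 lower.

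The test of the difference between TNF effects was the least stable. Its positive and negative calls numbered 4 and 3 without the set term, 3 and 13 in set 2 alone, 108 and 81 with quantile normalization, 94 and 68 without centring, 77 and 40 with the offset of 16 units, 19 and 10 with all probe sets averaged, 8 and 3 without the intensity trend, and 50 and 33 with array weights. Leaving out each array gave 17 to 64 positive and 8 to 32 negative. With probe sets averaged, NFKBIA turned to -0.67. Apart from averaging probe sets and leaving arrays out, the causes were not tested.

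Of genes higher at 16 h, 30 of those changed at least 2-fold were higher at 40 h and 28 lower, 91 and 135 with quantile normalization, and 54 and 43 with 8 vehicle arrays. Of genes lower at 16 h, 19 were higher and 11 lower at 2-fold, 51 and 50 with quantile normalization, and 62 and 59 with 8 vehicle arrays. Same-numbered arrays were not taken as pairs. Their deviations from the group mean correlated at 0.0526 to 0.213, and at 0.00519 to 0.0499 once means of each array set were removed. Before that removal, replicates 1, 2, 4 and 5 correlated best with the array of the same number, and replicate 3 with replicate 2. The replicate block gave 1067 higher and 641 lower. Dim genes are limited by low signal.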

Other observations

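Genes of lipid mediators moved in both directions with RA plus TNF against RA. Of 16 tested genes of eicosanoid synthesis and receptors 6 rose and 3 fell (37.5% and 18.8%, beside 7.68% and 4.58% over all genes). In array set 2 alone 2 rose and 2 fell. PLA2G7, a phospholipase that degrades platelet-activating factor, had 7.13 to 13.3 times the array median with RA plus TNF and 0.129 to 0.914 with RA, and rose by 4.22 ± 0.59 (log2, limma adjusted p 1.65e-06). LTC4S, which makes leukotriene C4, had 1.35 to 4.68 times the median with RA plus TNF and 5.72 to 15.3 with RA, and fell by 1.76 ± 0.28 (adjusted p 1.14e-05). CYSLTR1, a receptor for such leukotrienes, fell by 0.97 ± 0.18 (adjusted p 0.000173), though its probe sets disagreed in sign. Of 25 genes of lipid uptake and storage 8 rose and 2 fell (32% and 8%), and array set 2 alone gave 4 higher and 3 lower. The scavenger receptor CD36 was higher by 1.52 ± 0.22 (adjusted p 2.70e-06) and the lipoprotein receptor VLDLR lower, by -0.98 ± 0.18 (adjusted p 0.000170).

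Of 26 genes of amino acid and unfolded protein stress 8 rose and 1 fell. These shares were 30.8% and 3.85%, beside 7.68% and 4.58% over all genes. PPP1R15A, a phosphatase subunit that ends the stress response, rose by 1.59 ± 0.20 (adjusted p 2.00e-07) and SLC7A11, the cystine transporter, by 1.75 ± 0.46 (adjusted p 0.00771), both without overlap. The SLC7A11 call was lost without the intensity trend and with probe sets averaged (1.07). Its other probe sets differed by 0.11 and 1.36. Of 20 cytokine receptors 9 rose and 2 fell (45% and 10%), and array set 2 alone gave 2 higher and 2 lower. IL6ST, the signalling chain shared by interleukin 6 and its relatives, rose by 1.14 ± 0.18 (adjusted p 8.18e-06) and IL10RA by 1.12 ± 0.19 (adjusted p 3.60e-05), both with overlapping groups.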
